A study of Mus musculus with 9 samples.

Results

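Ribosome biogenesis genes encode the proteins that transcribe, cut, modify and fold ribosomal RNA and load it with ribosomal proteins. A list of 34 such genes was followed through 3 cell populations of the resting mouse hair follicle. A gene was measured by the probe set of the array that is annotated to its symbol alone, and where several were, by the one with the brightest mean. By that rule 32 of the 34 genes had a probe set. All 32 also passed the filter on low signals that left 7786 of 12393 named genes for testing. Dkc1 was not analysed here, and the single probe set of Mrto4 is shared with other annotated loci.

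The study asked which signals the dermal papilla releases to activate epithelial growth, and how hair germ and bulge cells differ. Cells came from back skin of female CD1 mice that carried both Lef1RFP and K14H2BGFP, so every group shared both reporters and no group lacked them. The second is a histone fused to GFP under the keratin 14 promoter, which is active in basal epithelial cells. A collagenase digest gave the dermal papilla cells, sorted as RFP positive and GFP negative with CD45, CD117 and itga7 positive cells gated out. The array titles add CD34 to that exclusion. Hair germ cells (CD34 negative, P-cadherin high) and bulge cells (CD34 positive, P-cadherin low) were sorted from a later trypsin digest as GFP positive and RFP negative. Each population was taken on postnatal days 43, 56 and 69, the early, middle and late stages of this telogen per the labels. Every population had 1 array on each day, 9 in all. Each array received RNA amplified through 2 rounds. How many mice were pooled, and whether the arrays of a day shared mice, is not stated.

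Ribosome assembly starts in the nucleolus, where RNA polymerase I makes one long precursor RNA. Small nucleolar ribonucleoproteins of the box C/D class direct ribose methylation of that precursor, and those of the box H/ACA class direct pseudouridylation. The small subunit processome then folds and cuts the part that becomes the small ribosomal subunit, while a separate set of factors, among them the complex of PES1, BOP1 and WDR12, matures the large subunit. Dividing cells need this supply of ribosomes, and the telogen hair germ is the compartment that is known to start dividing first when a new hair cycle begins.

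Markers of the dermal papilla and of keratinocytes followed the labels. The summed signal of 10 dermal papilla markers was 18368 to 25210 on dermal papilla arrays, against 374 to 939 in hair germ and 386 to 424 in bulge. The 8 keratinocyte markers summed to 223 to 724 in dermal papilla, against 30070 to 44837 in hair germ and 24533 to 26282 in bulge. Between the epithelial populations the summed signals were closer: 8 bulge markers summed to 10734 to 13937 in hair germ, against 14851 to 17408 in bulge. The 5 hair germ markers summed to 1149 to 2069 in hair germ, against 902 to 966 in bulge and 427 to 1315 in dermal papilla, which overlaps hair germ. Gene by gene, in the test described below, 6 of the 8 bulge markers fell in hair germ against bulge and 1 rose (87.5%, against 19.8% of all genes). Their median log2 difference was -2.37. Of the 5 hair germ markers 2 rose and 1 fell (60.0%). The 6 endothelial markers summed to at most 129 on any array. Array quality was uneven. The 3'/5' signal ratio of the GAPDH control, which grows when RNA is degraded or amplified short, was 6.62, 4.13 and 3.77 in dermal papilla across the days in order, then 8.34, 2.97 and 7.9 in hair germ and 4.46, 5.09 and 3.96 in bulge.

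Levels are given as log2(signal + 16), and differences are on that scale, where 1 is a 2-fold change. The added 16 makes a fold understate the change of a dim gene. The 3 days of a population served as its replicates in a limma model with population and day as terms, and a gene was called below a Benjamini-Hochberg adjusted p of 0.05 over all 7786 genes. As nothing states separate animals for each array, the p-values measure the spread between these arrays.

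The ribosome biogenesis genes differed little between populations, and what difference there was placed hair germ highest. The range between the highest and lowest of the 3 population means had a median of 0.62 over the 32 genes and 0.75 over all genes tested. It stayed under 1 for 28 of the 32 genes (87.5%), against 62.7% of all genes, and ran from 0.13 for Ncl to 1.41 for Rrp12. The mean was highest in dermal papilla for 8 genes (25%, against 32% of all genes), in hair germ for 20 (62.5%, against 39.9%) and in bulge for 4 (12.5%, against 28.1%). The full order of hair germ over dermal papilla over bulge was found in 14 genes, or 43.8%, and in 15.2% of all genes.

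**Figure D1:**
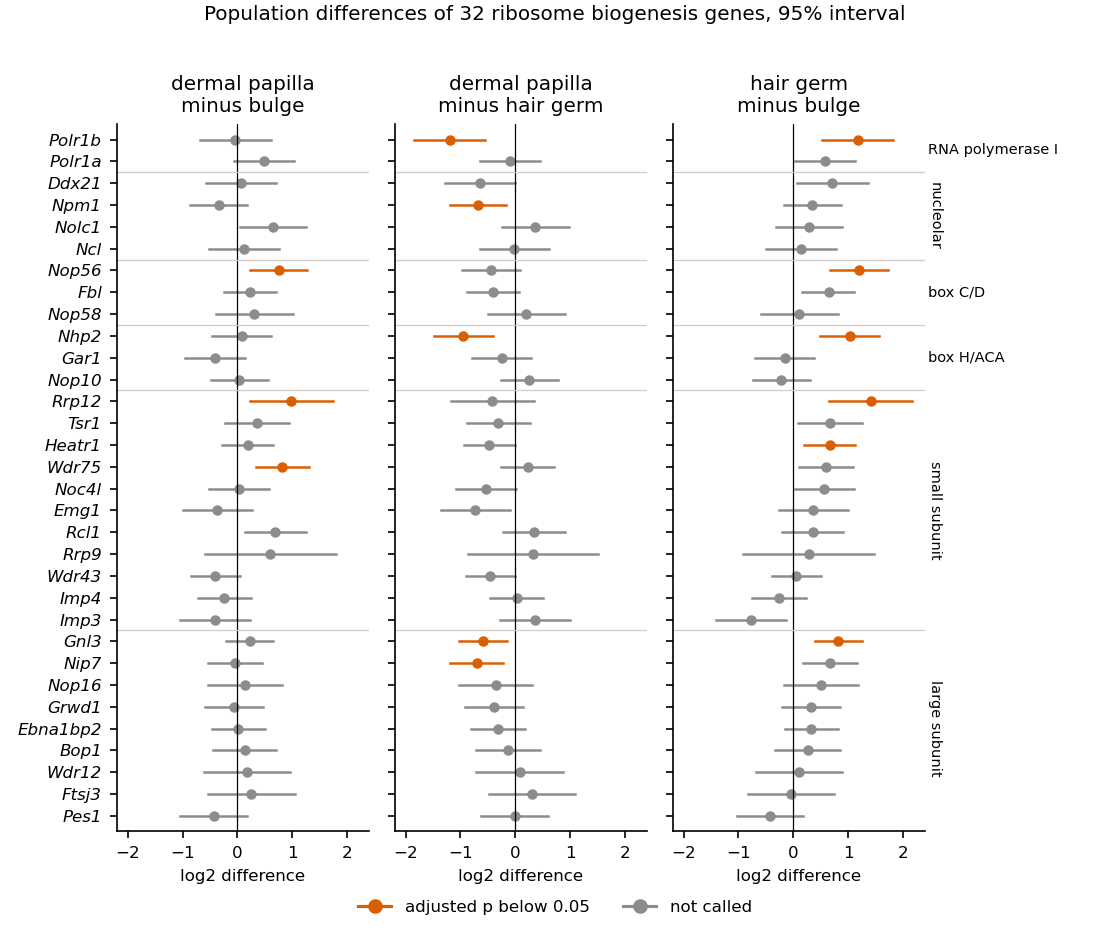
Difference in log2(signal + 16) for each of 32 ribosome biogenesis genes in 3 population contrasts, grouped by role (points, limma estimate; bars, 95% interval; orange, adjusted p below 0.05). The hair germ minus bulge panel lies mostly right of 0, from -0.77 to 1.41, with 6 genes called, while most intervals of the dermal papilla minus bulge panel cross 0.

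In hair germ against bulge, 6 of 32 genes rose and 0 fell (18.8%), where 19.8% of all genes were called, 12.2% as higher and 7.54% as lower. The share called was therefore close to that of all genes. The median difference was 0.35 over the 32 genes and 0.11 over all genes. Of the 32, 26 were above 0, against 4518 of all 7786. At an unadjusted p below 0.05 there were 14 of the 32, against 2595 of all 7786. The 95% interval stayed within 2-fold in both directions for 15 of the 32, against 4100 of all 7786. With any 1 bulge array left out, or the day 43 hair germ array, 3 genes were called. All were among the 6, except without the day 56 bulge array, where 2 were and Ddx21 was gained. Scaling set the split of all calls, of which 61.9% were higher as deposited, 46.3% after quantile normalization and 39.5% after median centring. Those scalings moved the median of all genes by -0.16 and -0.21, and the list lay above it by 0.24 as deposited, 0.25 and 0.24. Of the list, 5 rose and 0 fell after quantile normalization, and 3 rose and 1 fell after median centring.

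Of the RNA polymerase I subunits, Polr1b rose and Polr1a was not called. Polr1b encodes the second largest subunit of the enzyme. On days 43, 56 and 69 its level was 7.59, 7.22 and 6.81 in hair germ, against 5.63, 6.2 and 6.29 in bulge. Every hair germ array lay above every bulge array, and the difference was 1.17 ± 0.29 (SE; adjusted p = 0.0182, limma), a 2.24-fold change. Polr1a, the largest subunit, differed by 0.58 (95% interval 0.03 to 1.13; adjusted p = 0.131, limma) on its brightest probe set. The probe sets of this gene did not give one size of effect: in a fit over all probe sets another one gave 1.12 (adjusted p = 0.0318, limma).

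None of the 4 abundant nucleolar proteins was called in hair germ against bulge. The differences were 0.71 for Ddx21, an RNA helicase, 0.34 for Npm1 (nucleophosmin), 0.28 for Nolc1, a chaperone of nucleolar ribonucleoproteins, and 0.13 for Ncl (nucleolin). The second probe set of Npm1 had the opposite sign, at -0.11.

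The box C/D core gave the smallest adjusted p of the list, for Nop56, a scaffold protein of these particles. Nop56 stood at 9.15, 9.14 and 9.01 in hair germ, against 7.95, 8.14 and 7.62 in bulge. The groups did not overlap, the hair germ arrays were nearly level, and the difference was 1.2 ± 0.24 (SE; adjusted p = 0.0057, limma), or 2.29-fold. It rested on 1 of the 2 probe sets, because the dimmer one differed by 0.21 (adjusted p = 0.617, limma). Fbl, the methyltransferase fibrillarin, differed by 0.64 (adjusted p = 0.0606, limma) on its brighter probe set and by 0.88 (adjusted p = 0.021, limma) on the dimmer one. Nop58, the partner of NOP56, differed by 0.11, with an interval of -0.59 to 0.82.

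Among the box H/ACA proteins, Nhp2 rose and the other two were not called. Nhp2 was at 10.1, 9.8 and 9.92 in hair germ, against 9.07, 9.1 and 8.56 in bulge. All hair germ arrays were higher, by 1.03 ± 0.24 on average (SE; adjusted p = 0.0137, limma), and its second probe set differed by 1.07. Gar1 and Nop10, which sit in the same particle, differed by -0.16 and -0.22, with intervals of -0.7 to 0.38 and -0.74 to 0.3.

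Of the 11 small subunit genes 2 rose. Rrp12, a factor in late maturation and export of the small subunit, had levels of 6.25, 6.76 and 5.74 in hair germ, against 5.12, 4.56 and 4.86 in bulge. The groups did not overlap, and the difference was 1.41 ± 0.34 (SE; adjusted p = 0.0157, limma). Its signals were low: in bulge they were 18.9, 7.5 and 13.1 before the log, under the bulge array medians of 39.9 to 43.4. The size of the difference was therefore set by the added 16: it was 2.18 with 1 added, the largest of the called genes as with 16, and 0.71 with 64 added, where Nop56 had the largest at 1.05. The gene passed the filter with 3 arrays above the median, which were hair germ on days 43 and 56 and dermal papilla on day 69, and none of bulge.

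Heatr1, a scaffold of the early processome that also bears on RNA polymerase I transcription, was at 8.51, 8.65 and 8.14 in hair germ, against 7.97, 7.93 and 7.41 in bulge. These groups did not overlap either, but the difference of 0.66 ± 0.21 (SE; adjusted p = 0.0484, limma) sat just under the threshold, and its call was lost in most other settings tried. Just beyond the threshold were Wdr75, a processome subunit, at 0.6 (adjusted p = 0.0835, limma), and Tsr1, a late small subunit assembly factor, at 0.67 (adjusted p = 0.099, limma). Noc4l, a small subunit export and assembly factor, differed by 0.56, and another of its probe sets by -0.03. The methyltransferase Emg1 differed by 0.36, the cyclase-like protein Rcl1 by 0.35, Rrp9, a U3 particle protein, by 0.28 and the processome subunit Wdr43 by 0.05. Imp4 and Imp3, which join the U3 particle with the precursor RNA, were the small subunit genes below 0, at -0.26 and -0.77. Imp3 was the only one of the 32 genes with all 3 hair germ arrays below all 3 bulge arrays, at 7.29, 8.05 and 7.26 in hair germ, against 8.19, 8.41 and 8.3 in bulge, and was not called (adjusted p = 0.089, limma). It was the gene that fell after median centring, by 0.98 (adjusted p = 0.033, limma).

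Of the 9 large subunit genes 1 rose. Gnl3, the nucleolar GTPase nucleostemin, was at 9.66, 9.43 and 9.34 in hair germ, against 8.65, 8.6 and 8.71 in bulge. The bulge arrays were almost level and all lay lower, and the difference was 0.82 ± 0.19 (SE; adjusted p = 0.0138, limma). Nip7, needed for processing of the large subunit precursor, differed by 0.66 (adjusted p = 0.0595, limma), with a second probe set at -0.3. The assembly factors Nop16, Ebna1bp2, Grwd1 and Ftsj3 differed by 0.5, 0.32, 0.32 and -0.05. The proteins of the PES1, BOP1 and WDR12 complex did not share a direction, with differences of 0.26 for Bop1, 0.1 for Wdr12 and -0.43 for Pes1, and none was called.

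Across the 32 genes, all 3 hair germ arrays lay above all 3 bulge arrays for 9 (28.1%, against 24.0% of all genes) and below for 1 (3.12%, against 15.0%). The 9 were the 6 called genes with Wdr75, Tsr1 and Nip7. Within each day, with 1 array against 1, hair germ was above bulge for 24 of 32 genes on day 43, 25 on day 56 and 19 on day 69. Of all genes 52.6%, 58.5% and 58.0% were above, so the day 69 count (59.4%) was close to that of all genes. The median differences were 0.57, 0.5 and 0.27, where all genes gave 0.04, 0.12 and 0.16. The excess over all genes was thus smallest on day 69. These are sorted bulk samples, so more cells that express a gene and more RNA per cell cannot be told apart.

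**Figure D2:**
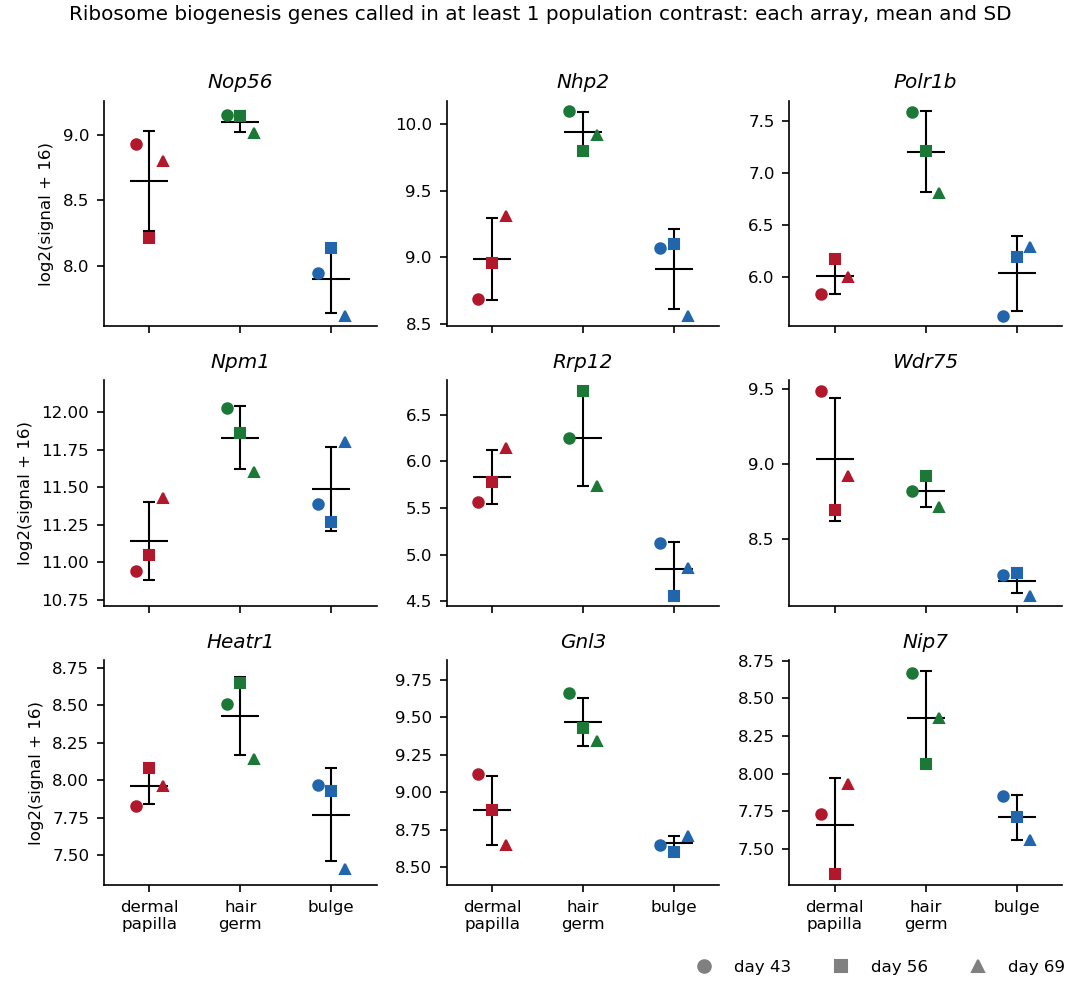
Level, as log2(signal + 16), of the 9 ribosome biogenesis genes called in at least 1 population contrast, for dermal papilla, hair germ and bulge (points, single arrays with the shape giving the day; line and bars, mean ± SD, n = 3). Hair germ lies highest for 8 of the 9, and Wdr75 is highest in dermal papilla. Vertical scales differ between panels.

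Promoter sequence was looked at for the genes called in hair germ against bulge. RefSeq promoter windows on GRCm38.p6 (250 bases before to 50 after the start of transcription) were found for 30 of the 34 genes, and Rrp12 had none. The 100 bases just before the start of the other 5 called genes follow. Capitals mark the ETS core motif CCGGAA, searched on both strands (as CCGGAA or TTCCGG).
Nop56 (chr2:130274312-130274411, plus strand): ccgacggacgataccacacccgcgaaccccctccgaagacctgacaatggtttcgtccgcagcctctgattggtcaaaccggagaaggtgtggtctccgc
Polr1b (chr2:129100896-129100995, plus strand): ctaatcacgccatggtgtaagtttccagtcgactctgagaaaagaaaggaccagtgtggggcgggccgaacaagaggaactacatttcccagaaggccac
Nhp2 (chr11:51619673-51619772, plus strand): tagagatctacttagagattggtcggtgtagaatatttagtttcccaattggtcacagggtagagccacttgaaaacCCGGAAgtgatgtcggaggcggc
Gnl3 (chr14:31019132-31019231, minus strand): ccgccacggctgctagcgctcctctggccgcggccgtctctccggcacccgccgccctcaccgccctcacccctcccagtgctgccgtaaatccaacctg
Heatr1 (chr13:12395275-12395374, plus strand): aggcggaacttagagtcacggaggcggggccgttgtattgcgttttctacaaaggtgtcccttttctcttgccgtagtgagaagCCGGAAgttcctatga

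The ETS core was present in the windows of 12 of the 30 genes (40.0%) and in 16.7% of the 27025 genes in the table. Of the 5 printed genes, Nhp2 and Heatr1 held it. The 27025 genes were not limited to ones that passed the filter on low signals, which 32 of the 34 listed genes did. The E-box CACGTG, which reads the same on both strands and is the site known to be bound by MYC with MAX, was present for 5 of the 30 genes (16.7%) and for 8.09% of all genes in the table. These 5 were Grwd1, Imp4, Pes1, Tsr1 and Wdr43, and none of them was called in hair germ against bulge. The 3 with the largest hair germ minus bulge difference are shown as 30-base stretches around the E-box, in capitals.
Tsr1 (chr11:74898092-74898121, plus strand): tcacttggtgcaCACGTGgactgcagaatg
Grwd1 (chr7:45830740-45830769, minus strand): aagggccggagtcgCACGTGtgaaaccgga
Wdr43 (chr17:71616220-71616249, plus strand): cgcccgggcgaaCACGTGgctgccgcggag
A match describes these letters only, and binding was not measured.

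In dermal papilla against bulge, 3 of 32 genes rose and 0 fell (9.38%), where 35.0% of all genes were called, 16% as higher and 19.0% as lower. The share called was below that of all genes, and 20 of the 32 intervals stayed within 2-fold, against 3523 of all 7786. The median difference was 0.12 over the 32 genes and -0.05 over all genes. Of the 32, 5 had an unadjusted p below 0.05, against 3419 of all 7786.

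The 3 genes that rose were Wdr75, Rrp12 and Nop56. Wdr75 was at 9.49, 8.69 and 8.92 in dermal papilla, against 8.26, 8.27 and 8.12 in bulge, a difference of 0.82 ± 0.22 (SE; adjusted p = 0.0141, limma). Rrp12 was at 5.56, 5.78 and 6.14 in dermal papilla and, as given above, between 4.56 and 5.12 in bulge, and differed by 0.98 ± 0.34 (SE; adjusted p = 0.0452, limma). Nop56 was at 8.93, 8.21 and 8.8 in dermal papilla, with the day 56 array close to the highest bulge array at 8.14. The difference was 0.75 ± 0.24 (SE; adjusted p = 0.0321, limma). All 3 genes had no overlap between dermal papilla and bulge arrays. All 3 calls were lost without the day 43 bulge array and again without the day 69 bulge array, and without the day 69 dermal papilla array 1 was left. Without the day 43 dermal papilla array, which had the highest GAPDH ratio of its population, Wdr75 and Nop56 were lost. Rcl1 and Rrp9 were called in that fit, so the count stayed at 3. With the second brightest probe set where a gene has one, Wdr75 and Nop56 were lost too, and Nolc1 and Polr1a were called.

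Some genes that were not called had sizes like these. Rcl1 differed by 0.69 (adjusted p = 0.0561, limma) and Nolc1 by 0.65 (adjusted p = 0.0934, limma). A second probe set of Nolc1 gave 1.11 (adjusted p = 0.0153, limma), and the 2 dimmer probe sets of Polr1a gave 1.58 (adjusted p = 0.00252, limma) and 1.38 (adjusted p = 0.0159, limma) where its brightest gave 0.48. The lowest values were -0.43 for Pes1, -0.41 for Gar1 and Imp3, -0.4 for Wdr43 and -0.37 for Emg1. All 3 dermal papilla arrays lay above all 3 bulge arrays for 6 genes (18.8%, against 24.3% of all genes) and below for 2 (6.25%, against 28.2%), which were Wdr43 and Pes1.

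In dermal papilla against hair germ, 0 of 32 genes rose and 5 fell (15.6%), where 39.2% of all genes were called, 15.4% as higher and 23.8% as lower. In both directions the share called was below that of all genes. The median difference was -0.31 over the 32 genes and -0.15 over all genes. An unadjusted p below 0.05 was found for 8 of the 32, against 3694 of all 7786. Intervals stayed within 2-fold for 20 of the 32, against 3325 of all 7786. Of all calls 39.4% were higher as deposited, 50.5% after quantile normalization and 49.4% after median centring, which moved the median of all genes by 0.16 and 0.15. Relative to that median the list was at -0.16 as deposited, at -0.18 and at -0.16.

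Polr1b fell most, with levels of 5.84, 6.18 and 6.0 in dermal papilla, against 7.59, 7.22 and 6.81 in hair germ. The difference was -1.2 ± 0.29 (SE; adjusted p = 0.00734, limma), with no overlap. Nhp2 was at 8.69, 8.96 and 9.31 in dermal papilla, against 10.1, 9.8 and 9.92 in hair germ, and differed by -0.95 ± 0.24 (SE; adjusted p = 0.00956, limma). For these 2 genes dermal papilla and bulge levels overlapped, at differences of -0.04 and 0.08, and hair germ stood apart from both.

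The other three genes that fell, by smaller amounts, also had no overlap. Nip7 was at 7.73, 7.33 and 7.93 in dermal papilla, against 8.67, 8.06 and 8.37 in hair germ, and differed by -0.7 ± 0.22 (SE; adjusted p = 0.0265, limma). Npm1 was at 10.94, 11.05 and 11.43 in dermal papilla, against 12.03, 11.86 and 11.6 in hair germ, and differed by -0.69 ± 0.23 (SE; adjusted p = 0.0375, limma). Gnl3 was at 9.12, 8.88 and 8.65 in dermal papilla, against 9.66, 9.43 and 9.34 in hair germ, and differed by -0.59 ± 0.19 (SE; adjusted p = 0.032, limma). These 3 calls were lost under quantile normalization and under median centring, which left 2 genes called. Leaving out the day 43 hair germ array also left 2, and leaving out the day 43 bulge array or the day 69 dermal papilla array left 3. Without the day 56 dermal papilla array 3 genes were called, of which 2 were among the 5 and Emg1 was gained. Without the day 43 dermal papilla array Polr1b and Gnl3 were still called as lower, and Nhp2, Nip7 and Npm1 were not. Imp3 and Rrp9 were called as higher in that fit, so 2 rose and 2 fell and the median of the list was -0.09. On their second brightest probe sets Nip7 at -0.45 and Npm1 at -0.56 were not called (adjusted p of 0.304 and 0.151, limma). Under that probe set rule Wdr43 was called. Its brightest probe set differed by -0.46 and, in a fit over all probe sets, the other by -0.77 (adjusted p = 0.0344, limma).

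No gene of the list had all dermal papilla arrays above all hair germ arrays (0.0%, against 17.5% of all genes), and 9 had all below, 28.1% of the list and also 28.1% of all genes. The highest differences were 0.36 for both Imp3 and Nolc1, 0.34 for Rcl1 and 0.32 for Rrp9. The count differed by day: dermal papilla was below hair germ for 28 of 32 genes on day 43, for 24 on day 56 and for 14 on day 69. It was above for the other 4, 8 and 18, and for 43.8%, 41.5% and 43.3% of all genes. The median differences were -0.59, -0.37 and 0.15, where all genes gave -0.13, -0.16 and -0.17. Against bulge on the same days dermal papilla was above for 12, 20 and 24 of 32 genes, and for 45.9%, 47.7% and 49.0% of all genes. The medians were -0.2, 0.14 and 0.4, where all genes gave -0.08, -0.04 and -0.02. These pairs of arrays carry no test.

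The 3'/5' ratio moved with these contrasts, since the day 43 and day 69 hair germ arrays and the day 43 dermal papilla array had the 3 highest GAPDH ratios. Leaving them out keeps 1 hair germ array, of day 56, which is then assumed to vary like the other groups, so a fall in calls says little about the genes. Without those arrays 1 of the 32 genes, Rrp12, was called in hair germ against bulge and 0 in dermal papilla against hair germ, with 11 and 5 genes at an unadjusted p below 0.05. Over all genes 7.01% and 22.9% were called then. Sizes stayed similar for some genes and moved for others. In hair germ against bulge Nop56 differed by 1.28, where all arrays gave 1.2, and Rrp12 by 2.22, where all arrays gave 1.41. In dermal papilla against hair germ Polr1b differed by -1.11, where all arrays gave -1.2, and Nhp2 by -0.61, where all arrays gave -0.95. The median of the list without those 3 arrays was 0.56 in hair germ against bulge and -0.3 in dermal papilla against hair germ.

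No gene was called between days over the 3 populations together. The limma test called 0 of 7786 genes (0.0%) for day 69 against day 43 and likewise 0 (0.0%) for day 56 against day 43, while 565 and 398 genes had an unadjusted p below 0.05, among them 1 and 2 of the list. For day 69 against day 43 the smallest p-values of the list belonged to Grwd1 at -0.61, Fbl at -0.45 and Ncl at 0.51, with adjusted p of 0.681, 0.704 and 0.753 (limma). For day 56 against day 43 they belonged to Imp3 at 0.87, Ddx21 at -0.76 and Imp4 at 0.43, each with an adjusted p of 0.845 (limma). The intervals of 27 and 24 of the 32 genes stayed within 2-fold, against 5809 and 5946 of all 7786.

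The populations did not move alike between days, which a shared day term does not describe. The comparisons that follow set 1 array against 1 and carry no test.

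**Figure D3:**
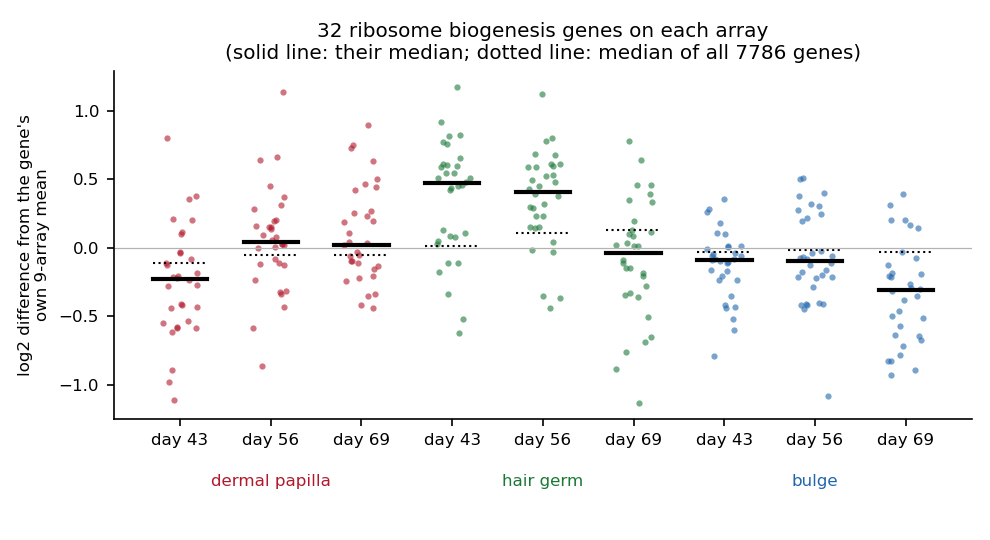
Each point is 1 of 32 ribosome biogenesis genes on 1 array, as its log2(signal + 16) minus its own mean over the 9 arrays (solid line, median of the 32; dotted line, median of all 7786 genes). The medians are 0.47 and 0.41 on the day 43 and day 56 hair germ arrays and -0.04 on the day 69 one, and the lowest is -0.31 in day 69 bulge.

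In hair germ on day 69 the list was lower than on day 43 for 27 of 32 genes (84.4%), whereas 41.9% of all genes were lower. The median difference was -0.42 and that of all genes 0.13. Under other scalings or pseudocounts the lower genes numbered 27 to 30 of 32, and the median ran from -0.35 to -0.71. With other probe set rules 25 of 32 or 21 of 28 were lower. On the brightest probe sets all 9 large subunit genes were lower, by 0.31 to 0.97: Pes1 differed by -0.97, Bop1 by -0.94 and Wdr12 by -0.87. A second, dimmer probe set of Wdr12 had the opposite sign, at 6.52 on day 69 against 5.78 on day 43. So did dimmer probe sets of Nip7, at 6.7 against 5.98, and of Grwd1, at 7.07 against 6.73. Another probe set of Grwd1 was lower, at 5.96 against 6.72, as was the dimmer one of Pes1, at 5.62 against 6.05. Polr1a and Polr1b differed by -0.81 and -0.78. The 3 box H/ACA genes stayed between -0.18 and 0.12, and the genes above 0 were Ncl at 0.41, Nop58 at 0.34, Wdr43 at 0.17, Nop10 at 0.12 and Imp4 at 0.03.

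As deposited, Rrp9 was the only gene to reach 2-fold between days 69 and 43 in hair germ, at 4.59 against 6.23 (3.12% of the list, against 13.8% of all genes). Its day 69 signal of 8.0 was under the array median of 56.3. How many reached 2-fold depended on the scaling: 7 were lower by that much with 1 added in place of 16 (21.9%, against 20.2% of all genes), 8 under quantile normalization (25%, against 13.3%) and 10 under median centring (31.2%, against 14.9%). Between days 56 and 43 in hair germ, Ncl was 2.46-fold higher on its brightest probe set, at 11.1 against 9.8. Ddx21 was 2.41-fold lower, at 7.32 against 8.59 (6.25%, against 9.05%). The second brightest probe set of Ncl went the other way, at 8.65 on day 56 against 9.71 on day 43. The next one rose, at 8.43 against 6.99, and the dimmest was nearly level, at 7.95 against 8.04. With the mean over all probe sets 0 genes of the list reached 2-fold (0.0%, against 6.73%). GAPDH ratios were 7.9 on day 69 and 8.34 on day 43, and 2.97 on day 56. The part of RNA quality in the day 56 values was not tested.

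In bulge no gene of the list reached 2-fold on either day (0.0%, against 0.758% and 2.75% of all genes). On day 69 against day 43, 23 of 32 were lower (71.9%, against 48.9% of all genes), with a median of -0.21. The 3 box C/D genes differed by -0.33 to -0.62 and the 3 box H/ACA genes by -0.52 to -0.65, so both particle classes were lower on the brightest probe sets. The dimmer probe set of Fbl was level, at 8.54 on both days. Those of Nop56, Nhp2 and Nop10 were lower on day 69, at 6.76 against 7.32, 6.11 against 6.72 and 7.62 against 7.78. With the second brightest probe set where a gene has one, 14 of 28 were lower and the median was -0.01.

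Dermal papilla ran the other way, with 23 of 32 genes higher than on day 43 on day 56 and likewise on day 69 (71.9%, against 53.5% and 55.2% of all genes). The medians were 0.26 and 0.29, where all genes gave 0.04 and 0.07. Both comparisons used the same day 43 array. Under quantile normalization 21 and 19 of 32 were higher, with medians of 0.27 and 0.11. Under median centring 20 and 19 were higher, with medians of 0.2 and 0.12. Rrp9 was at 6.86 on day 56 and 6.62 on day 69, against 4.61 on day 43. Its day 43 signal was 8.4 before the log, under the array median of 41.4, so the size of its fold is set by the added 16 and is not given. Between days 56 and 43 Imp3 was 3.13-fold higher, at 8.57 against 6.93, and Nop16 was 2.09-fold higher, at 7.49 against 6.42, which with Rrp9 made 3 genes past 2-fold (9.38%, against 7.59% of all genes). Between days 69 and 43 the genes were Rrp9, Imp3 at 2.38-fold and Ftsj3 at 2.24-fold (9.38%, against 8.86%). For Rrp9 and Imp3 both later arrays were above the day 43 array, whose GAPDH ratio of 6.62 was the highest of this population. The part of RNA quality was not tested.

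**Figure D4:**
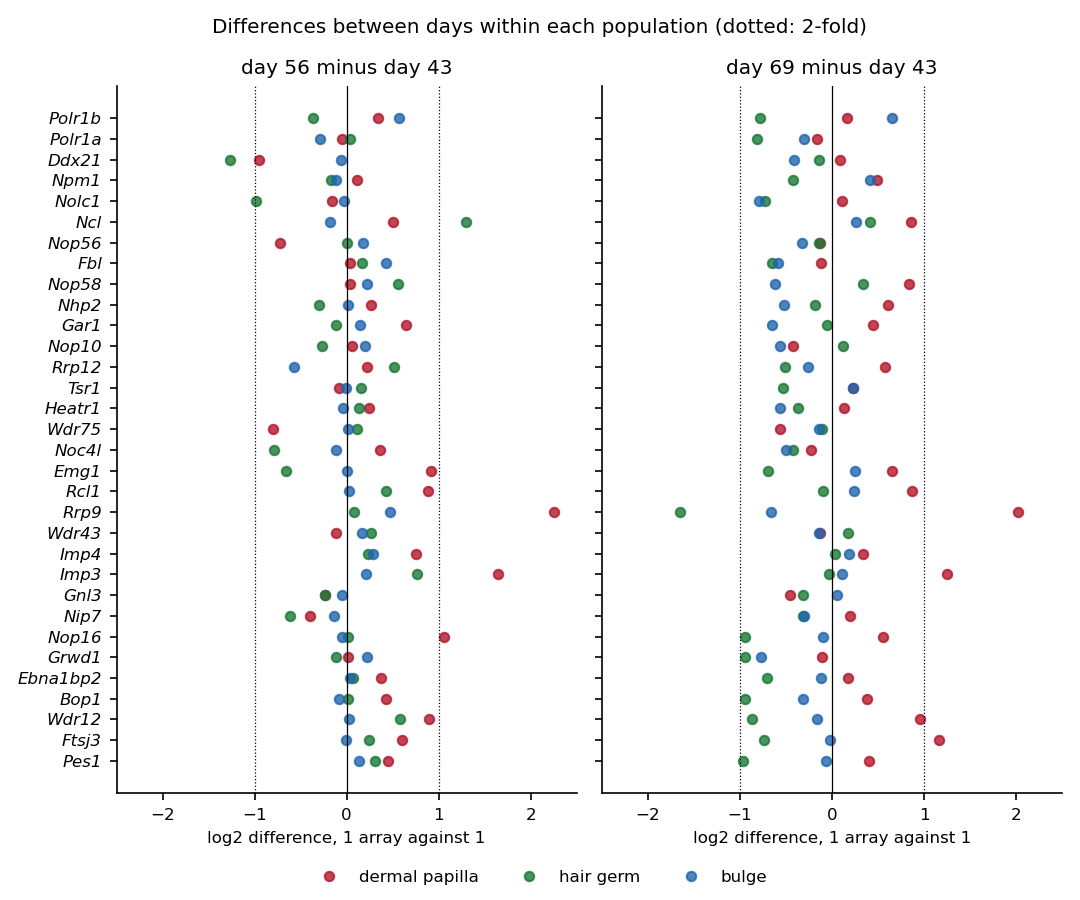
Difference in log2(signal + 16) of each of 32 ribosome biogenesis genes between 2 days of 1 population, with 1 array against 1 (dotted lines, 2-fold). In the day 69 panel hair germ points lie left of 0 for 27 of 32 genes and dermal papilla points right of 0 for 23, and Rrp9 has the largest difference of both, at -1.65 and 2.02.

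Genes of ribosome assembly outside the list had medians of the same sign as the list, but closer to those of all genes. These were 105 further genes for the RNA polymerase I machinery, both subunits and the RNA exosome, of which 91 were tested. In hair germ against bulge 8 rose and 1 fell (9.89%), with a median of 0.23, where all genes gave 0.11. In dermal papilla against bulge 3 rose and 6 fell (9.89%), with a median of 0.07, where all genes gave -0.05. In dermal papilla against hair germ 1 rose and 14 fell (16.5%), with a median of -0.23, where all genes gave -0.15. Each share was below that of all genes in the same contrast. The 12 exosome genes alone had medians of 0.09, -0.03 and -0.03 in these contrasts.

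The RNA polymerase I machinery held 3 of the 8 that rose in hair germ against bulge, of 11 tested. Rrn3, which brings the polymerase to its promoter, rose by 0.9 ± 0.23 (SE; adjusted p = 0.0181, limma), at 7.93, 7.63 and 7.74 in hair germ, against 6.84, 6.95 and 6.81 in bulge. Taf1c and Taf1d, subunits of the promoter selectivity factor, rose by 1.05 each (adjusted p = 0.03 and 0.0221, limma). Polr1d, a subunit shared with RNA polymerase III, fell in dermal papilla by 1.19 against hair germ and by 1.29 against bulge (adjusted p = 0.0051 and 0.00329, limma).

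Further small subunit genes, 27 tested, gave 3 that rose in hair germ against bulge, the processome genes Utp4 at 0.83, Wdr36 at 0.82 and Utp3 at 0.66 (adjusted p of 0.0432, 0.0297 and 0.0393, limma). Against hair germ 4 fell in dermal papilla, among them Utp3 at -1.06, Wdr36 at -0.96 and the helicase Ddx10 at -0.94. Against bulge Nol11 fell by 1.01 and Utp11 rose by 0.65.

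Further large subunit genes, 41 tested, gave 2 that rose in hair germ against bulge, Noc2l at 0.76 and Pelp1 at 0.65. Gnl2, a GTPase of large subunit export, rose in dermal papilla by 1.43 ± 0.3 against bulge (SE; adjusted p = 0.00315, limma) and by 0.82 against hair germ (adjusted p = 0.0493, limma). Nop53 fell there by 1.0 against bulge and by 0.95 against hair germ, Eif6, which keeps the subunits apart, fell by 0.82 against bulge, and Nifk fell by 0.82 against hair germ. Of 12 exosome genes, which trim precursor RNA, Exosc7 fell in dermal papilla by 1.23 against bulge and by 0.76 against hair germ, Exosc9 fell by 0.78 against hair germ, and the cofactor C1d fell in hair germ by 0.9 against bulge.

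Myc, the transcription factor best known for driving ribosome production, did not follow the order of the list. Its level was 4.88, 6.5 and 7.46 in dermal papilla, against 8.89, 9.04 and 8.71 in hair germ and 8.64, 8.69 and 8.6 in bulge. Hair germ and bulge differed by 0.24 (adjusted p = 0.752, limma), and in dermal papilla it fell by 2.59 against hair germ (SE 0.43; adjusted p = 0.000695, limma) and fell by 2.36 against bulge (SE 0.43; adjusted p = 0.00137, limma). In dermal papilla Myc was lowest on day 43, the array on which the ribosome biogenesis genes were also lowest in that population. That array had the highest GAPDH ratio of the population, at 6.62, and all genes had a median of -0.11 on it, relative to their own means. A link between Myc and the list was not tested.

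Some antagonists of MYC that bind the same partner MAX differed between the epithelial populations. Mxi1 fell in hair germ against bulge by 1.16 and Mxd4 by 1.1, while Mxd3, known from proliferating cells, rose by 1.4 (adjusted p of 0.00941, 0.00917 and 0.00939, limma). Mnt at -0.25 and Mga at 0.38, which bind MAX too, were not called (adjusted p of 0.548 and 0.542, limma). Of 7 network genes tested, 3 were called in hair germ against bulge (42.9%, against 19.8% of all genes). In dermal papilla 3 were called against bulge (42.9%, against 35.0%) and 2 against hair germ (28.6%, against 39.2%).

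Of 18 translation factor genes 5 rose in hair germ against bulge, 0 fell and 13 were not called (27.8% called, against 19.8% of all genes), with a median of 0.41, among them the poly(A) binding protein gene Pabpc1 at 1.04, Eif3b at 0.83 and Eif3a at 0.68. Eif4ebp1, whose product holds back cap-dependent initiation, rose in dermal papilla by 2.15 against bulge and by 1.43 against hair germ. All 17 mitosis genes tested rose in hair germ against bulge (100%, against 19.8% of all genes), with a median of 2.46. All 17 fell in dermal papilla against hair germ (100%, against 39.2%). Their summed signal, over 18 genes on the array, was 139 to 371 in dermal papilla, against 4489 to 12047 in hair germ and 378 to 658 in bulge.

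Genes of the p53 response, which is known to be set off when ribosome assembly is impaired, split in hair germ against bulge. There 3 of 10 rose and 1 fell (40.0% called, against 19.8% of all genes). Pmaip1 rose by 2.62, Cdkn1a by 1.48 and Sesn2 by 1.33 (adjusted p of 0.000335, 0.000755 and 0.00445, limma), and the median was -0.16. In dermal papilla 6 of the 10 fell against hair germ (60.0%, where 39.2% of all genes were called, 23.8% as lower). Against bulge 4 fell (40.0%, where 35.0% of all genes were called, 19.0% as lower).

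Markers of differentiating epidermis moved with hair germ too. The summed signal of 5 such genes was 283 to 720 in dermal papilla, against 12528 to 32963 in hair germ and 2034 to 4085 in bulge, with no overlap. Melanocyte markers summed to 394 to 709 in dermal papilla, against 2215 to 5000 in hair germ and 2269 to 2991 in bulge, where the hair germ and bulge ranges overlapped. Gene by gene they did differ: of 4 melanocyte genes tested in hair germ against bulge, 3 rose and 1 fell (100%, against 19.8% of all genes). The differences ran from -2.18 to 4.34, with a median of 3.45. Sebocyte markers summed to 2265 to 4575 in dermal papilla, against 2408 to 4356 in hair germ and 1250 to 2163 in bulge. Leukocyte markers summed to 105 to 647 in dermal papilla, 657 to 989 in hair germ and 762 to 965 in bulge. The part of other cell types, of dividing cells and of the 3'/5' ratio in the hair germ levels of the ribosome biogenesis genes was not tested.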

How the data were processed

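Each deposited value is a probe set's linear intensity, made by the authors with GCOS and MAS5 per the submitters' processing notes. Versions and the scaling target are not given in the sources used here. Of 22690 probe sets, 64 were controls, and 20380 carried 1 gene symbol, 691 several and 1555 none in the platform annotation, with 20351 matched to the current gene table by Entrez identifier. Array medians were 39.9 to 56.3. Arrays give no count depth, so their number limits the precision.

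From these, log2(signal + 16) was taken with no scaling between arrays. Each gene was represented by its brightest probe set, kept if above its array's median on at least 3 of 9 arrays. limma 3.58.1 in R 4.3.3 fitted population and day as additive terms to all 9 arrays (4 residual degrees of freedom, eBayes with a trend, two-sided tests, Benjamini-Hochberg over 7786 genes, called below 0.05). Intervals are 95%. Between populations, deviations of arrays of the same day correlated at -0.097 to 0.184 across genes and those of different days at -0.26 to 0.243, so the numbers do not show that a day's arrays were paired, and day was kept as a factor of the design. The steps were tested on simulated data.

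The 34 genes, the other lists and the tests were chosen with earlier results of these data known. All genes of the list were described. Full statistics went to up to 6 called genes with the largest difference per population contrast, the 3 smallest p-values per day contrast, genes at 2-fold or more between days of a population (up to 4) and up to 3 called genes per other list and contrast. Promoter windows came from RefSeq. The alternatives tried were other pseudocounts, scalings, filters and probe set rules, no day term, no trend, and arrays left out.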

Additional observations from a re-analysis of the deposited data

Results flagged for a closer look

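Rrp9, which encodes a protein of the U3 small nucleolar particle, differed in opposite directions between days in dermal papilla and in hair germ. Between days 69 and 43 its log2(signal + 16) was higher by 2.02 in dermal papilla, at 6.62 against 4.61, and the difference was -1.65 in hair germ, at 4.59 against 6.23. In bulge it was -0.66. With 1 array per population and day the difference between populations was not tested. Each of these comparisons had 1 array with a signal well under its array median, at 8.4 in day 43 dermal papilla and 8.0 in day 69 hair germ before the log, with medians of 41.4 and 56.3 there.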

How the results depend on the processing

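The number of genes called in hair germ against bulge (6) was 3 when a gene had to exceed the median on all 9 arrays, which left 27 of the 32 genes, and 1 without the 3 arrays of GAPDH ratio over 6, a fit that keeps 1 hair germ array and assumes that it varies like the other groups; leaving out 1 array at a time gave 3 to 7, with 3 each without bulge day 43, 56 or 69 or hair germ day 43. For dermal papilla against bulge (3) it was 5 with the mean over all probe sets and 0 to 4 with 1 array left out, 0 without bulge day 43 or day 69 and 1 without dermal papilla day 69. It stayed at 3 without dermal papilla day 43 and with the second brightest probe set, but only 1 of the 3 genes was the same each time. For dermal papilla against hair germ (5) it was 2 under quantile normalization, 2 under median centring, 2 when the arrays of dermal papilla day 43 and of hair germ day 69 were both left out, 0 in that same fit without the high GAPDH arrays, and 2 to 5 with 1 array left out, 2 without hair germ day 43 and 3 without bulge day 43, dermal papilla day 56 or dermal papilla day 69. Without the day term as replicate block, 5, 3 and 6 genes were called in hair germ against bulge, dermal papilla against bulge and dermal papilla against hair germ: Heatr1 was lost in the first and Emg1 gained in the last. No gene of the list was called between days in any setting run. Ncl for day 69 against day 43 turned to -0.131 with the second brightest probe set. The median over the list ran from 0.14 to 0.56 in hair germ against bulge, from -0.09 to 0.27 in dermal papilla against bulge and from -0.46 to -0.09 in dermal papilla against hair germ. The cause of these changes was not tested. Counts at 2-fold between days 69 and 43 in hair germ (1) were 7 and 0 with pseudocounts of 1 and 64, 8 under quantile normalization, 10 under median centring and 2 under either other probe set rule. Other 2-fold counts ran from 0 to 4 for day 56 in hair germ, from 0 to 1 on both days in bulge, from 2 to 5 for day 56 in dermal papilla and from 1 to 5 for day 69 there. Signals under the array median, as for Rrp12 in bulge, limit how well their folds are known.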

Other observations

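The only probe set of Mrto4, a large subunit assembly factor, is annotated also to the loci Mrto4-ps1 and Mrto4-ps2, so its signal cannot be given to 1 gene. It read 6.81, 7.23 and 7.21 in dermal papilla on days 43, 56 and 69, 7.15, 7.23 and 6.99 in hair germ and 7.23, 7.08 and 6.99 in bulge, as log2(signal + 16), and the populations overlapped.

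Of the 32 genes, 16 had more than 1 probe set tested. The probe sets of a gene had the same sign for 12 of the 16 in hair germ against bulge, with Grwd1, Nip7, Noc4l and Npm1 mixed. They had the same sign for 13 in dermal papilla against bulge, with Grwd1, Ncl and Wdr12 mixed, and for 11 in dermal papilla against hair germ, with Grwd1, Noc4l, Nop56, Polr1a and Wdr12 mixed. Nop56 differed there by -0.45 on one probe set and by 0.39 on the other.

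The spread between the 3 arrays of a population was like that of other genes. The median SD over the list was 0.3 in dermal papilla, 0.39 in hair germ and 0.19 in bulge, and over all genes it was 0.29, 0.36 and 0.18.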
